A study of Mus musculus with 2 samples.

Results

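The spliceosome proteins and SR factors were taken as every gene symbol of the deposited table that starts with Snrp, Sf3a, Sf3b, Srsf, Prpf or U2af, without Snrpn. The rule gave 46 genes of 23418 rows. RNA was from C57BL/6 mouse embryos at the 4/8-cell stage, injected with siRNA to Dnmt1 (siDnmt1), the enzyme that maintains DNA methylation, or with scrambled siRNA (scrambled). Each group was 1 library from 20 pooled embryos, so the differences have no replicate check and no p-value was computed. Differences between the pools, between embryos at the 4-cell and the 8-cell stage and between amplifications cannot be told apart from the siRNA. The RNA was selected on oligo-dT beads, amplified by 20 cycles of PCR and counted per gene, with no molecular identifiers described. In a pool, fewer cells and less RNA per cell cannot be told apart either.

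The spliceosome removes introns from pre-mRNA. Small nuclear ribonucleoproteins (snRNPs) recognise the splice sites: a ring of Sm proteins encircles each U1, U2, U4 and U5 snRNA, and further proteins are specific to one particle. U2AF and the SF3a and SF3b complexes mark the 3′ splice site and the branch site, the Prpf proteins build and activate the U4/U6.U5 tri-snRNP, and SR proteins bind exons through RNA recognition motifs and recruit the other factors through domains rich in arginine and serine. The early embryo starts with spliceosome mRNA and protein stored in the oocyte and replaces them with its own transcripts after the embryonic genome is activated.

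The libraries held 12236615 counts in siDnmt1 and 11675483 in scrambled, of which the ribosomal RNA precursor Rn45s took 37.3% and 29.9%. Dnmt1 itself had 687 counts in siDnmt1 and 847 in scrambled, and 38.3% of all genes compared had a ratio at or below its own. The Dnmt1 count was 1.23-fold lower in siDnmt1, with an interval of 1.11 to 1.37 from counting error alone. All intervals given are 95% Clopper-Pearson intervals of this kind and cover neither amplification nor differences between pools. Of the 12 markers of oocyte and preimplantation embryo looked up, the summed counts were 62968 in siDnmt1 and 36552 in scrambled, most of them from Sp110. The other 11 summed to 2000 in siDnmt1 and 3599 in scrambled, and of the 9 markers compared 3 were lower by 2-fold or more and 0 higher. Of all genes compared, 16.7% were lower by this rule and 12.5% higher. To any degree, 5 of the 9 markers were lower in siDnmt1 and 3, Sp110 among them, higher. Among the 11, Pou5f1, the pluripotency factor Oct4, had 1489 and 2152, Zfp352 112 and 802, Dppa3 70 and 194, and Tcl1 0 and 33. Padi6 went the other way, with 51 in siDnmt1 and 29 in scrambled, as did Gdf9 with 27 and 24, and Obox5 had 45 in both. Cumulus and granulosa markers summed to 2 counts in siDnmt1 and 0 in scrambled, with 9 of 10 at 0 in both, blood markers to 20 and 12 (3 of 6 at 0 in both), oviduct markers to 0 and 2 (4 of 5) and fibroblast markers to 6 and 38 (5 of 6), all of the last from Postn. The haemoglobin genes Hba-a1, Hbb-b1 and Hbb-b2 were at 0 in both libraries, and the part of other cells in the results was not tested.

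Together the 46 genes held 50001 counts in siDnmt1 and 39958 in scrambled, 0.652% and 0.488% of the counts outside Rn45s. The gene Odc1 alone took 16.5% of the counts outside Rn45s in siDnmt1 and 24.5% in scrambled. With Odc1 also left out, the members' shares were 0.781% and 0.646%. The excess in summed counts lay in Sf3b3 and Prpf8, which encode large scaffold proteins of the U2 and U5 particles. This pair made up 58.4% of the members' counts in siDnmt1 and 36.7% in scrambled. Leaving these out, a choice made after their values were seen, the other 44 genes summed to 20817 counts in siDnmt1 and 25289 in scrambled, 1.21-fold lower. Of the 46 genes, 37 averaged 20 counts or more across the pair of libraries and were compared by log2((siDnmt1 + 5)/(scrambled + 5)), a scale on which low counts give too small a change. Prpf3 and Sf3b3 were at least 2-fold higher in siDnmt1 on this scale (called higher), 2 of 37 members (5.41%), where 12.5% of the 7315 genes compared were. Snrpc, Prpf38a, Snrpd1, Snrpf, Snrpd3 and Srsf5 were at least 2-fold lower (called lower), 6 of 37 (16.2%), where 16.7% of all genes compared were. The other 29 lay within 2-fold. The lower share is close to that of all genes, and the higher share is below it by few genes. The median log2 ratio was -0.29 over the 37 members and -0.02 over all genes compared, with 26 members below 0 and 11 above. The middle 50% of the members spanned log2 ratios from -0.75 to 0.11, against -0.67 to 0.57 for all genes. For 29 of the 37 (78.4%) the interval of the ratio did not include equality, 9 of them higher and 20 lower. At this depth the same held for 72.4% of all genes compared, 35.4% higher and 37% lower. The total is near that of all genes, but the members leaned to lower where all genes were split nearly evenly. The part of transcript length in this split was not tested.

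**Figure D1:**
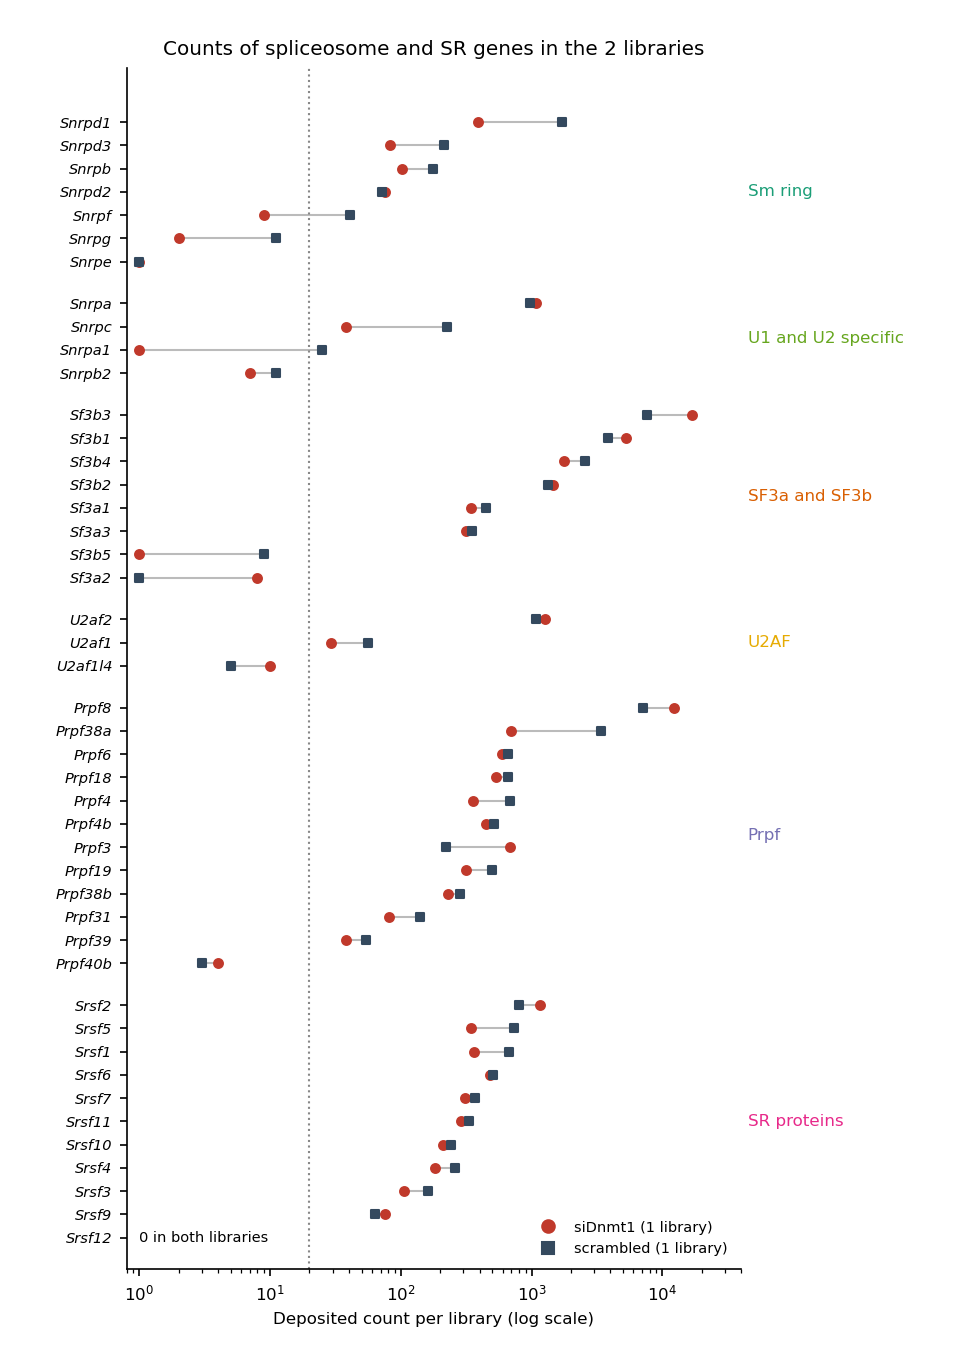
Deposited counts of 45 of the 46 genes on a log axis, grouped by role and ordered by summed count, with siDnmt1 as circles and scrambled as squares, 1 library each. The dotted line marks 20 counts, the mean needed for comparison. Sf3b3 and Prpf8 hold the highest counts in both libraries, and the Sm ring genes have their siDnmt1 point left of the scrambled point except for Snrpd2 and Snrpe.

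Dnmt1 copies methylation at CG dinucleotides, and the upstream regions of the genes with the most extreme ratios are shown for their CG content. Methylation was not measured in these libraries. The sequences are the 250 bases before the start of Prpf3 (chr3:95855886-95856135, minus strand) and Sf3b3 (chr8:110846804-110847053, minus strand), both higher in siDnmt1, and of Prpf38a (chr4:108579337-108579586, minus strand) and Snrpc (chr17:27839837-27840086, plus strand), both lower. They are from RefSeq on GRCm38.p6, run 5′ to 3′ on the strand of the gene, and have each CG in capitals.
Prpf3: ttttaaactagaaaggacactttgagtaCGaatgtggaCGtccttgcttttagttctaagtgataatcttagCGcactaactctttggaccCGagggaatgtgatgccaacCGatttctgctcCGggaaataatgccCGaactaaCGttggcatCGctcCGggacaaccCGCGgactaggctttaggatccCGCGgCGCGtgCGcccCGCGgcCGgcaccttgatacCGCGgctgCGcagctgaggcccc
Sf3b3: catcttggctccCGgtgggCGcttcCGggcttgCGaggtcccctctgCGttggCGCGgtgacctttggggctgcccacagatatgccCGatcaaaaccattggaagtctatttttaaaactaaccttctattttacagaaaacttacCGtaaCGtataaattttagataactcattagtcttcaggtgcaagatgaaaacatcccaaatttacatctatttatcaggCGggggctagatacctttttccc
Prpf38a: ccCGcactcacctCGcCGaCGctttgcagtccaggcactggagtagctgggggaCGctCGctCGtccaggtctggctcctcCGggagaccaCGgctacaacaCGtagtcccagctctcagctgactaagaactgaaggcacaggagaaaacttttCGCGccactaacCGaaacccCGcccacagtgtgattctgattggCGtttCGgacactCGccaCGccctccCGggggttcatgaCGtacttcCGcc
Snrpc: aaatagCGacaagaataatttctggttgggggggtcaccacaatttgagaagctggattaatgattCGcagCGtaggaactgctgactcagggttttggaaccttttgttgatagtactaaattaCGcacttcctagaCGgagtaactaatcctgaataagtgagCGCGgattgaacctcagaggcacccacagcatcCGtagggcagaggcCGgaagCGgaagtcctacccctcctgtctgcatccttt

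These 250 bases hold 23 CG in Prpf3 and 11 in Sf3b3, against 21 in Prpf38a and 10 in Snrpc. The higher pair and the lower pair each have 1 member rich in CG and 1 with fewer. RefSeq windows of 300 bases, from 250 before to 50 after the start, were found for 39 of the 46 members and for 5552 of the 7315 genes compared. The 39 include members below 20 counts on average, such as Sf3a2, Snrpb2, Snrpe and Snrpg, while the genes compared leave such genes out. The members' windows held a median of 24 CG against 22 for all genes compared, with a range from 7 in Snrpa1 to 49 in Srsf4. The CG count was over 0.6 of that expected from base composition in 38 of 39 members (97.4%), all but Snrpa1, and in 79.8% of all genes compared. A set of 6 short motifs was searched on both strands of the windows. The ETS core CCGGAAG was in 16 of 39 members (41.0%) and in 21.2% of all genes compared. The others were closer in share: CCAAT of NF-Y in 41.0% of members against 39.2% of all genes, GGGCGG of Sp1 in 64.1% against 68.4%, GCATGC of NRF1 in 10.3% against 11.4%, AAGATGGC of YY1 in 5.13% against 5.66% and the TATA box core TATAAA in 10.3% against 6.02%. A match is a match of letters and not a shown binding site. Of the 4 genes above, Sf3b3 and Snrpc hold CCGGAAG, 1 higher and 1 lower.

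Most Sm ring genes had fewer counts in siDnmt1. Of the 5 compared, 3 were called lower and 0 higher, where 16.7% and 12.5% of all genes compared were. The median log2 ratio was -1.34. With the trend on transcript length removed, 1 of the 5 was still called lower (Snrpd3), Snrpd1 and Snrpf were not, and the median was -0.55. Snrpd1, which encodes SmD1, had 387 counts in siDnmt1 and 1710 in scrambled, 4.42-fold lower (3.95 to 4.95). It was the most abundant of the ring in both libraries, at 451 counts per kilobase in siDnmt1 and 1993 in scrambled. Snrpf, for SmF, had 9 counts in siDnmt1 and 41 in scrambled, 4.56-fold lower with a wide interval of 2.18 to 10.7. Snrpd3, for SmD3, had 82 in siDnmt1 and 215 in scrambled, 2.62-fold lower (2.02 to 3.42). Snrpb, for SmB, was lower by less than 2-fold, with 102 counts in siDnmt1 and 175 in scrambled (1.72-fold, 1.34 to 2.21). Snrpd2, for SmD2, stood apart from these with 75 counts in siDnmt1 and 72 in scrambled, a ratio of 1.04 (0.744 to 1.46), and its sign turned with the scaling of the libraries. Snrpe had 1 count in each library and Snrpg 2 in siDnmt1 and 11 in scrambled, too few to compare. One copy of each Sm protein enters a ring, while the per-kilobase levels of the 5 mRNAs spanned 43.2-fold in siDnmt1 and 41.9-fold in scrambled.

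The counts of the smallest Sm genes are uncertain. Of the 50-base words in the transcripts of Snrpd1, Snrpg, Snrpe and Snrpf, 13.8% to 21.3% also occur in processed pseudogenes, with a smaller share in Snrpd2, and how reads with several matches were treated is not given in the sources used here. In Snrpf, 85.4% of the exonic bases are overlapped by genes on the opposite strand, Ccdc38 and 4933408J17Rik, and whether the counting used strand is not given either. Snrpd3 has 0 such shared words and is overlapped on 6.74% of its exonic bases by Gucd1.

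The genes of U1-specific proteins differed from each other. Snrpc encodes U1-C, which steadies the pairing of U1 snRNA with the 5′ splice site, and had 38 counts in siDnmt1 and 225 in scrambled, 5.92-fold lower (4.18 to 8.59). Its log2 ratio of -2.42 was the lowest of the 37, and 2.58% of all genes compared lay at or below it. Snrpa encodes U1-A, which binds a stem-loop of U1 snRNA, and had 1089 in siDnmt1 and 969 in scrambled, 1.12-fold higher (1.03 to 1.23). Snrnp70, the third U1-specific gene, is outside the symbol rule and was named after its values were seen. It had 176 in siDnmt1 and 295 in scrambled, 1.68-fold lower (1.39 to 2.03). The U2-specific pair was below 20 counts on average: Snrpa1 had 1 in siDnmt1 and 25 in scrambled, lower by 4.09-fold to 1026-fold by its interval, and Snrpb2 had 7 and 11. Pseudogene words made up 19.6% of the Snrpc transcript and 22.5% of that of Snrpa.

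The genes of SF3a and SF3b, the U2 complexes that hold the branch site, lay close to all genes by their median log2 ratio of -0.02 over 6. Within SF3b the subunits differed. Sf3b3, the large propeller-shaped scaffold, had 16893 counts in siDnmt1 and 7580 in scrambled, 2.23-fold higher (2.17 to 2.29), and 3733 and 1675 counts per kilobase. Sf3b1, whose protein clamps the branch site duplex, had 5296 in siDnmt1 and 3819 in scrambled, 1.39-fold higher (1.33 to 1.45). Sf3b2 was nearly level, at 1446 in siDnmt1 and 1338 in scrambled (1.08-fold higher, with an interval that just left out equality). The RNA-binding subunit Sf3b4 went the other way, with 1763 in siDnmt1 and 2577 in scrambled (1.46-fold lower, 1.38 to 1.55), and 49.3% of its transcript words also occur in the pseudogene Gm7935. The small subunits of SF3b had few counts, fewer in siDnmt1 than in scrambled. Sf3b5 had 1 count in siDnmt1 and 9 in scrambled, and Phf5a, outside the symbol rule, had 12 and 38 (3.17-fold lower, 1.62 to 6.66). The row 0610009D07Rik, which RefSeq names Sf3b6 and which was also added after its values were seen, had 2 in siDnmt1 and 21 in scrambled. In SF3a, Sf3a3 had 316 in siDnmt1 and 353 in scrambled, within counting error of equality, and Sf3a1 had 343 and 452 (1.32-fold lower, 1.14 to 1.52). Sf3a2 had 8 in siDnmt1 and 1 in scrambled.

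U2AF recognises the end of the intron, U2af2 by the polypyrimidine tract and U2af1 by the terminal AG. U2af2 had 1258 counts in siDnmt1 and 1089 in scrambled, 1.16-fold higher (1.06 to 1.25). U2af1 had 29 in siDnmt1 and 56 in scrambled, 1.93-fold lower (1.21 to 3.14), at a log2 ratio of -0.84. With the trend on transcript length removed, described further on, U2af1 came to 0.15, so its direction depends on that adjustment. The subunits pair in the protein, but their mRNAs were 20.8-fold apart per kilobase in siDnmt1 and 9.32-fold in scrambled. U2af1l4, a paralogue of U2af1, had 10 in siDnmt1 and 5 in scrambled. Other genes, most of them pseudogenes, share 59.4% of the words of U2af1 and 29.9% of those of U2af2. For U2af1l4 the share is 97.2%, and Gm49396 overlaps it on the same strand.

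**Figure D2:**
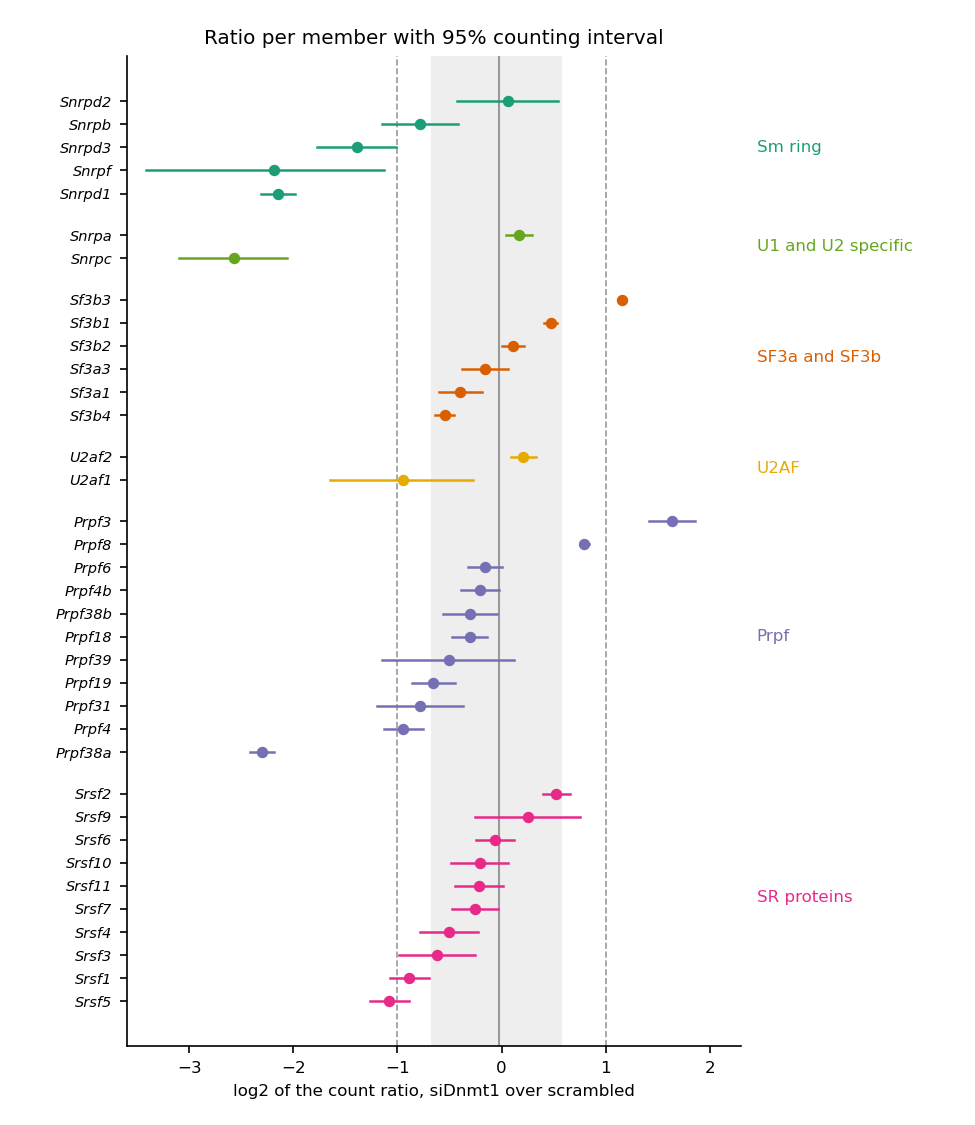
Log2 of the plain count ratio, siDnmt1 over scrambled, for 36 of the 37 members compared, by role, with 95% Clopper-Pearson intervals that cover counting error only. The grey band is the middle 50% of the 7315 genes compared, the solid line their median of -0.02 and the dashed lines 2-fold. Prpf3 and Sf3b3 lie beyond the right-hand 2-fold line, and Snrpc, Prpf38a, Snrpd1 and Snrpf lie farthest to the left.

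The Prpf genes, which serve the tri-snRNP and later steps, had a median log2 ratio of -0.30 over 12. Of these, 1 was called higher and 1 lower (8.33% each), against 12.5% and 16.7% of all genes compared. Prpf3, a U4/U6 protein, had 689 counts in siDnmt1 and 222 in scrambled, 3.10-fold higher (2.66 to 3.63), and 95.6% of all genes compared lay at or below it. Its partners in the U4/U6 particle went the other way. Prpf4, which binds PRPF3, had 355 in siDnmt1 and 683 in scrambled (1.92-fold lower, 1.69 to 2.19), and Prpf31, which holds the U4 stem, had 81 and 139 (1.72-fold lower, 1.30 to 2.29). Prpf38a, whose protein joins the precatalytic spliceosome and is needed for its activation, had 696 in siDnmt1 and 3426 in scrambled, 4.92-fold lower (4.54 to 5.35). With 459 counts per kilobase in siDnmt1 and 2260 in scrambled, it was the highest of the 37 per kilobase in scrambled, while Sf3b3 was the highest in siDnmt1. Its relative Prpf38b had 229 in siDnmt1 and 282 in scrambled, 1.23-fold lower (1.03 to 1.47).

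Prpf8, which encodes the protein at the heart of the catalytic centre in U5, had 12291 counts in siDnmt1 and 7089 in scrambled, 1.73-fold higher (1.68 to 1.79). Other U5 genes are outside the symbol rule, and all but Eftud2 were named after their values were seen. Eftud2, a GTPase, had 1071 in siDnmt1 and 396 in scrambled (2.70-fold higher, 2.41 to 3.04), and Snrnp200, the helicase that unwinds U4/U6, had 2219 and 1041 (2.13-fold higher). Prpf6, which bridges U5 to U4/U6, had 589 in siDnmt1 and 659 in scrambled, with an interval that just included equality. Txnl4a, a small U5 protein, had 944 in siDnmt1 and 1484 in scrambled (1.57-fold lower, 1.45 to 1.71). Ddx23, a U5 helicase, had 905 in siDnmt1 and 924 in scrambled, and Snrnp40 had 68 and 87, with intervals that included equality, so the U5 genes did not share 1 direction.

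Further Prpf genes lay within 2-fold. Prpf19, the ubiquitin ligase of the complex that bears its name, had 316 in siDnmt1 and 498 in scrambled (1.58-fold lower, 1.37 to 1.82). Prpf18, a second-step factor, had 534 and 661 (1.24-fold lower, 1.10 to 1.39), and the kinase gene Prpf4b had 446 and 515 (1.15-fold lower, 1.02 to 1.31). Prpf39 had 38 in siDnmt1 and 54 in scrambled, not distinguishable at this depth, and Prpf40b had 4 and 3.

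From lowest to highest log2 ratio, the SR genes spanned less than the Sm genes before the trend on transcript length was removed. With the trend removed they did not. A span widens with the number of genes, and 10 SR genes were compared against 5 Sm genes, so it does not settle which set varied more. The log2 ratios then ran from -1.05 (Srsf1) to 1.12 (Srsf9) over the SR genes compared. Over the Sm genes compared they ran from -1.31 (Snrpd3) to 0.70 (Snrpd2). Without the removal, 1 of the 10 SR genes compared was called lower (10.0%) and 0 higher, where 16.7% and 12.5% of all genes compared were. The median log2 ratio of the 10 was -0.23, and 8 lay below 0. Of these 8, Srsf6 turned sign when the libraries were scaled to equal totals without Rn45s. Srsf5 had 345 counts in siDnmt1 and 729 in scrambled, 2.11-fold lower (1.86 to 2.41). Srsf1, the founding SR protein, had 361 in siDnmt1 and 667 in scrambled, 1.85-fold lower (1.62 to 2.11). Srsf3, the shortest of the family in protein, had 105 and 161 (1.53-fold lower, 1.19 to 1.98). Srsf4 had 183 in siDnmt1 and 260 in scrambled (1.42-fold lower, 1.17 to 1.73), and Srsf7, which carries a zinc knuckle, had 311 and 371 (1.19-fold lower, 1.02 to 1.39). Srsf2 was the only SR gene above 0 with an interval that left out equality, at 1154 in siDnmt1 and 802 in scrambled (1.44-fold higher, 1.31 to 1.58). It was also the highest per kilobase in siDnmt1, at 608 counts per kilobase, while Srsf5 was the highest in scrambled at 465. For Srsf6 (483 in siDnmt1 and 504 in scrambled), Srsf10 (211 and 244), Srsf11 (287 and 333) and Srsf9 (75 and 63) the interval included equality. Srsf12 had 0 counts in both libraries, which allows up to 3 counts in each, for counting error only.

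Some SR transcripts share sequence or position with other genes, and whether reads of those genes were counted is not known. Transcript words found in other genes made up 31.5% in Srsf3, 27.8% in Srsf5 and 10.0% in Srsf10. For Srsf5 and Srsf10 these genes are pseudogenes, and for Srsf3 4 of 5 are. Genes on the opposite strand overlap 43.0% of the exonic bases of Srsf4 and 25.3% of those of Srsf2. Srsf1, Srsf6, Srsf9 and Srsf11 have 0 shared words. Over all members, 18 of the 37 compared had 0 shared words and 11 had more than 10%.

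The log2 ratios moved with transcript length in these libraries. Among all genes compared with a known length, 62.6% of the 174 genes of up to 1000 nt were at least 2-fold lower in siDnmt1, against 7.26% of the 1268 genes above 6000 nt. The medians of these classes were -1.29 and 0.19. Spearman's rho between length and log2 ratio was 0.34 over the 37 members and 0.26 over 7270 genes, as a description across genes that share the same 2 libraries. Both members of up to 1000 nt, Snrpf (861 nt) and Snrpd1 (858 nt), were at least 2-fold lower, as were 3 of the 11 members over 1000 and up to 2000 nt (Snrpc, Prpf38a and Srsf5), where 30.9% of all genes of that class were. Snrpd3 was the 1 lower member among the 9 over 3000 and up to 4000 nt, where 14.2% of all genes were lower. Its length rests on the longest coding transcript in GENCODE, 3036 nt.

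With the trend on length removed by a lowess curve, 5 of the 8 genes kept their place beyond 2-fold: Prpf3 at a log2 ratio of 1.65, Sf3b3 at 1.01, Snrpc at -1.40, Prpf38a at -1.73 and Snrpd3 at -1.31. Snrpd1 came to -0.96, Snrpf to -0.55 and Srsf5 to -0.55, no longer 2-fold. Prpf4 (-1.10) and Srsf1 (-1.05) then passed downward and Srsf9 (1.12) upward, so that 3 members were higher and 5 lower, against 2 and 6 before. After the same removal 12.8% of 7270 genes were higher and 13.7% lower, so neither count of members stands above that of all genes. The median of the 5 Sm genes was -0.55 after removal, against -1.34 before, with Snrpd2 at 0.70. The sign turned for 3 members, Snrpb at 0.14, U2af1 at 0.15 and Sf3a3 at 0.18. The part of length in these ratios was not tested beyond this adjustment.

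**Figure D3:**
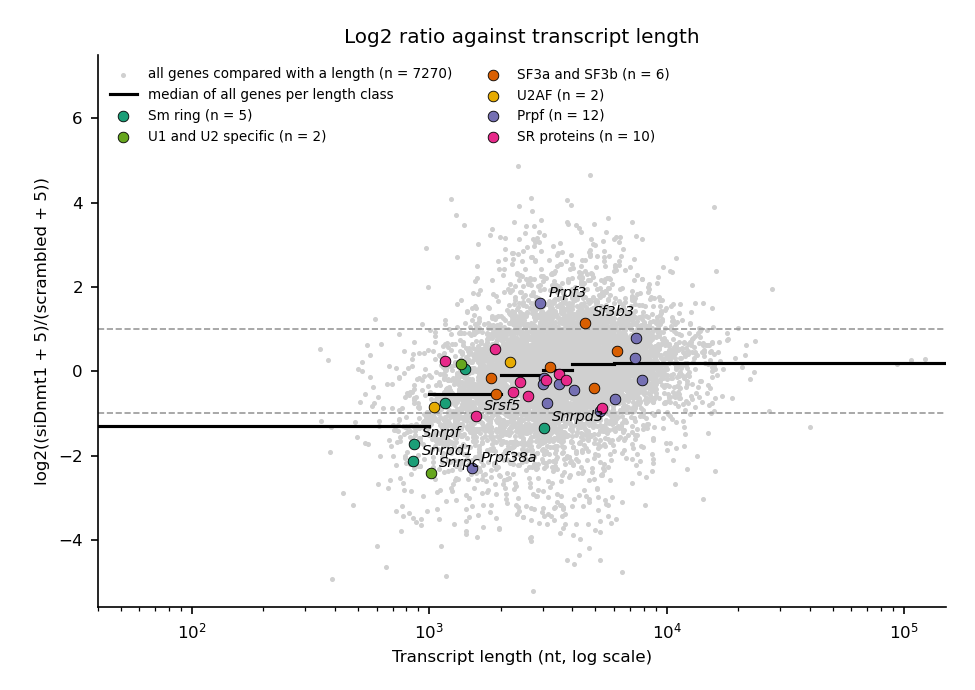
Log2((siDnmt1 + 5)/(scrambled + 5)) against transcript length on a log axis for 7270 genes (grey) and the 37 members (coloured by role), with the median of all genes in each of 6 length classes as black lines. Dashed lines mark 2-fold, and the members beyond it are named. The class medians run from -1.29 for genes of up to 1000 nt to 0.19 above 6000 nt.

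Other genes of splicing were set beside the members in 7 lists. Of all 7315 genes compared, 12.5% were called higher and 16.7% lower. No list exceeded either share, apart from the LSm genes, with 1 of 5 called lower (20.0%). That gene, Lsm2, has a transcript of 873 nt, and 62.6% of all genes of up to 1000 nt were at least 2-fold lower. The values of the lists are given without removal of the trend on length. Among further snRNP proteins, 3 of 29 compared were called higher and 4 lower, at a median log2 ratio of -0.21. The highest were Eftud2 and Sart3, a recycling factor of U6, with 1555 counts in siDnmt1 and 706 in scrambled (2.20-fold higher, 2.01 to 2.41). The lowest were Snrnp35, of the minor U11/U12 particle, with 100 and 270 (2.70-fold lower, 2.14 to 3.43), and Phf5a. Of the 13 LSm genes, 8 were below the mean of 20 counts, and of the 5 compared only Lsm2 and Lsm3 encode proteins of the ring on U6. Lsm2 had 13 in siDnmt1 and 41 in scrambled (3.15-fold lower, 1.66 to 6.41) and Lsm3 16 and 35 (2.19-fold lower, 1.18 to 4.23), and Lsm12 had 311 and 160 (1.94-fold higher) and Lsm14a 96 and 88. The list median of -0.74 is the value of Lsm14b, which is not a U6 ring gene.

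Genes of the Prp19-associated complex and the catalytic steps had 0 of 22 called higher and 3 lower, with a median of -0.19. Ppie, a cyclophilin, had 212 counts in siDnmt1 and 727 in scrambled (3.43-fold lower, 2.94 to 4.02) and Bcas2, a Prp19 complex subunit, 123 and 312 (2.54-fold lower). Dhx8, the helicase that releases the spliced mRNA, had 4554 in siDnmt1 and 2826 in scrambled (1.61-fold higher) and Crnkl1 692 and 459 (1.51-fold higher). Of the hnRNP genes, whose proteins coat pre-mRNA and often oppose SR proteins, 2 of 23 were called higher and 1 lower, with a median of -0.11. Hnrnpu had 719 in siDnmt1 and 238 in scrambled (3.02-fold higher, 2.61 to 3.51) and Syncrip 1126 and 430 (2.62-fold higher), against Hnrnph2 with 112 and 234 (2.09-fold lower) and Hnrnpl with 1019 and 2039 (2.00-fold lower).

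The kinases, importer and relatives of SR proteins had 0 of 17 called higher and 1 lower, with a median of -0.05, close to that of all genes. Srpk1, the cytoplasmic SR kinase, had 10524 counts in siDnmt1 and 6045 in scrambled (1.74-fold higher, 1.69 to 1.79) and Rbm39 2068 and 1096 (1.89-fold higher). Sfswap had 275 in siDnmt1 and 567 in scrambled (2.06-fold lower) and the nuclear kinase gene Clk3 78 and 155 (1.99-fold lower). In the exon junction complex and export list, 1 of 11 was called higher and 1 lower, with a median of -0.11. Ncbp1, of the nuclear cap-binding complex, had 7178 in siDnmt1 and 2773 in scrambled (2.59-fold higher, 2.48 to 2.71) and Thoc5 192 and 120 (interval 1.27 to 2.03 higher). Rbm8a, a core subunit deposited near exon junctions, had 263 and 1050 (3.99-fold lower, 3.48 to 4.59) and its partner Eif4a3 4270 and 8439 (1.98-fold lower).

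The list of snRNP assembly, the pathway by which the SMN complex loads Sm proteins onto snRNA, had 0 of 13 called higher and 1 lower, with a median of -0.11. Smn1 had 129 counts in siDnmt1 and 281 in scrambled (2.18-fold lower, 1.76 to 2.70), from a transcript of 1222 nt, and Phax, the snRNA export adaptor, had 52 and 77. Ddx20, an SMN complex helicase, had 1462 in siDnmt1 and 964 in scrambled (1.52-fold higher) and Strap 241 and 164 (1.47-fold higher).

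**Figure D4:**
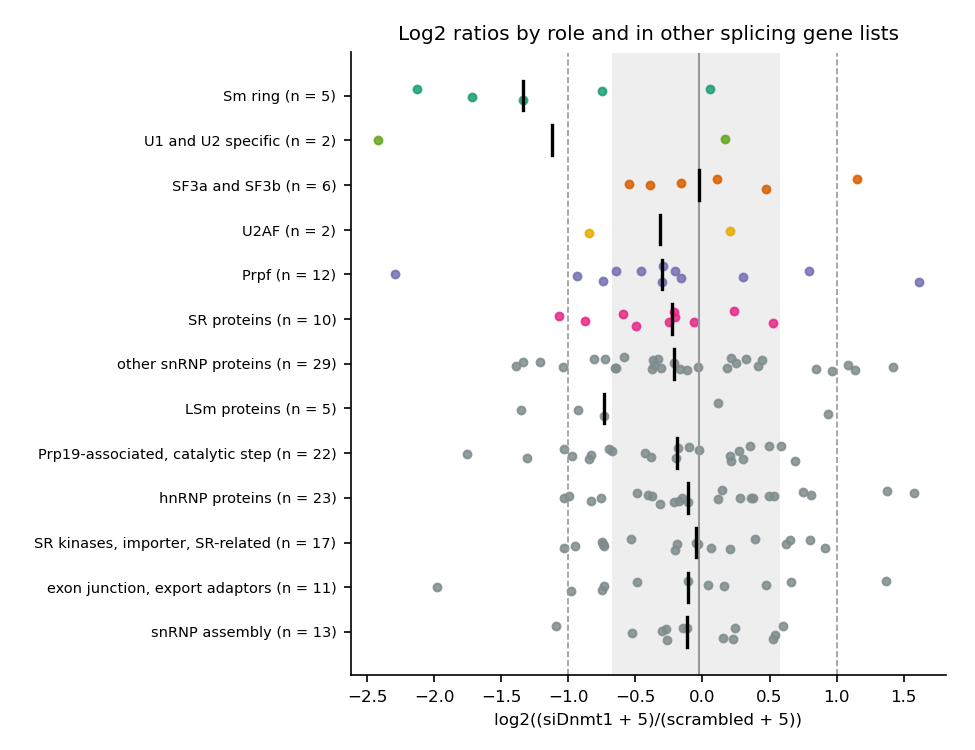
Log2((siDnmt1 + 5)/(scrambled + 5)) for each gene compared, by role of the members (coloured) and in 7 other splicing lists (grey), with each median as a black bar. The grey band is the middle 50% of all 7315 genes compared and the dashed lines are 2-fold. The Sm ring median of -1.34 lies farthest to the left, and the SR kinase list median of -0.05 lies near that of all genes.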

How the data were processed

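RNA-seq counts of 1 siDnmt1 and 1 scrambled library were used as deposited. Trim Galore, HISAT2, HTSeq, DESeq2 and mm9 are named in the submitters' processing notes. Not given in the sources used here: versions, annotation, use of strand, and what was done with reads that match several genes. The authors' counts are described in the labels as DESeq2-normalised. Every whole number below 380 (siDnmt1) or 382 (scrambled) occurs, so no scaling up by 1.0015 to 2, in steps tried, took place. A scaling down would not show in this way. DESeq2 size factors recomputed from the table were 1, which a normalised table would also give. The values were used as counts without further scaling.

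With 1 library per group no test was possible. The 7315 genes that averaged 20 counts or more were compared on log2 with a pseudocount of 5. All 46 members entered the counts and medians, and the values of 1 of them are not reported here. In other lists, the 2 highest and 2 lowest genes are named, and others were chosen after their values were seen. Members and lists were chosen with earlier results of these data known. Lengths are those of the longest coding transcript in GENCODE M21 on GRCm38, found for 7270 genes. Shared words are 50-base words of that transcript present in transcripts of other genes, and overlaps are of annotated exons. The first window listed per gene was taken as promoter. The 2-fold rule was tested on simulated data. Scaling factors came from R 4.3.3 with DESeq2 1.42.0 and edgeR 4.0.16. The rest was computed in Python 3.11.15 with pandas 2.3.3, statsmodels 0.14.6 for lowess curves (span 0.3), scipy 1.17.1 for intervals and numpy 2.4.6. Alternatives were other pseudocounts, scalings, filters, thresholds and removal of trends on length and level. Spread between embryos could not be measured.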

Additional observations from a re-analysis of the deposited data

How the results depend on the processing

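The counts of members at least 2-fold apart were recomputed with pseudocounts of 1 and 20, 5 scalings, trends on length and on level removed, no filter, a mean of at least 100 counts, and a 1.5-fold threshold. The median log2 ratio, which was not recomputed for the threshold, stayed below 0 in each. It ran from -0.36 (equal totals) to -0.20 (equal totals without Rn45s). The median of all genes compared was -0.09 with equal totals and 0.06 with equal totals without Rn45s. With the trend on level removed, 1 member was at least 2-fold higher instead of 2, since Sf3b3 came to 0.96. At 1.5-fold, 13 members were lower and 3 higher, where 28.0% and 24.7% of all genes were. Srsf5 came to -0.98 with equal totals without Rn45s, and Prpf4 passed 2-fold downward with equal totals. With no filter 3 members were higher and 9 lower of 45, where 12.4% and 15.6% of all genes were, and at a mean of at least 100 counts 2 and 5 of 32, where 9.33% and 11.4% of all genes were. Prpf3, Snrpc, Prpf38a and Snrpd3 kept their calls under every alternative scaling, pseudocount, trend and filter run. Among the 5 scalings, that by DESeq2 size factors, which were 1, repeated the main values and is no separate check. No paired analysis was possible because each group has 1 library. Depth limits the 9 members below the mean of 20 counts, for which no ratio is firm.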
